A study of Mus musculus with 18 samples.

Results

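Scavenger receptors are the surface proteins with which macrophages take up modified lipoproteins, bacteria and debris, and efferocytosis receptors are those with which they take up dying cells. A set of 10 such genes was followed across the study, chosen by name from 24485 listed genes, and all 10 were found. Msr1 and Marco encode class A scavenger receptors, Cd36 and Scarb1 the class B receptors for oxidised lipids and for high-density lipoprotein, and Mrc1, Cd163 and Stab1 clearance receptors found on resident and alternatively activated macrophages. Axl and Mertk are receptor tyrosine kinases of the TAM family, which recognise dying cells through bridging ligands that bind phosphatidylserine on the dying cell, and Gas6 is one such ligand, bound by both. Axl and Mertk also dampen signalling by toll-like receptors, the family that includes the receptor for lipopolysaccharide (LPS).

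RNA was sequenced from bone marrow-derived macrophages (BMDMs) of Il10-/- mice on the C57BL/6J background, in 18 libraries that formed 6 groups of 3. Cells received (+)-JQ1 at 500 nM, IL-10 at 10 ng/mL or neither for 12 hours, and then LPS at 50 ng/mL or buffer (PBS) for 4 hours, which gave the groups Unstimulated, JQ1, IL-10, LPS, LPS + JQ1 and LPS + IL-10. JQ1 is a small molecule that displaces BET bromodomain proteins from acetylated histones, and IL-10 is the anti-inflammatory cytokine whose gene was deleted in every group, controls included. The comparisons addressed how BET inhibition and the missing cytokine change the response of these cells to LPS. The mice were male and 12 weeks old according to the methods of the study, and bone marrow was grown for 6 days in medium conditioned by L929 cells, a source of the growth factor for macrophages. The labels call the cells without JQ1 or IL-10 untreated, whereas the methods name a vehicle control before LPS. The design text describes matched samples, the methods name 3 Il10-/- mice, and the replicate numbers 1, 2 and 3 were taken to name them. No label states this outright, so a mouse below means a replicate number under this reading.

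Expected counts per library added up to between 6781952 and 28289498. A list of 8 macrophage markers reached a summed TPM (a transcript level scaled for gene length and for the total of its library) of 14290 to 29340 in every library, with no marker at 0 in a group. The sum was 23170 to 24990 in Unstimulated cells and 29200 to 29340 with JQ1. With LPS it was 14290 to 15740, and with LPS + JQ1 19590 to 22580. Both IL-10 groups overlapped their controls. The part of these differences in the results below was not tested. Dendritic cell, lymphocyte and fibroblast lists stayed at or under 10.3 TPM, and Ly6g, a defining neutrophil marker, was at 0 in all groups. The list of 6 cycling-cell markers differed with JQ1, at 25.1 to 29.5 TPM against 64.3 to 89.0 in Unstimulated cells, and at 12.1 to 13.4 TPM with LPS + JQ1 against 59.9 to 80.6 with LPS. Its part in the JQ1 results below was not tested. By flow cytometry, the paper reports that JQ1 without LPS changed neither viability nor cell cycle progression in Il10-/- BMDMs. The 8 neutrophil and granulocyte genes also added up to less with JQ1 (7.50 to 17.5 TPM, against 24.3 to 87.3 in Unstimulated cells), and their part was not tested either. In bulk RNA, a smaller share of a cell type and less RNA of a gene per cell cannot be told apart. Normalised counts of Il10 were between 27.1 and 176.7 per library, and no group carried the intact gene for comparison.

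Without stimulation the 10 genes differed widely in abundance. The mean TPM over 3 libraries was 506.3 ± 96.6 (SD, n = 3) for Cd36, 256.6 ± 7.32 for Stab1, 191.0 ± 20.2 for Gas6 and 166.6 ± 34.2 for Msr1. Mertk (69.2 ± 5.60), Mrc1 (66.95 ± 9.70), Axl (63.1 ± 7.22) and Scarb1 (53.3 ± 5.66) lay close together below them. Cd163 (0.817 ± 0.386) and Marco (0.553 ± 0.759) were near the limit of detection. Cd36 stood above 98.7% of the 15188 genes with any TPM in Unstimulated cells, and Cd163 and Marco above 26.8% and 24.1%. Gas6 and Msr1 overlapped between libraries, as did Mertk with Mrc1 and Mrc1 with both Axl and Scarb1, so the order within those neighbours was not set by these libraries. The summed TPM of all 10 genes was 1374 ± 95.1 (SD) in the Unstimulated group and 1187 ± 223 in the LPS group. It reached 1517 ± 254 when IL-10 came before LPS and 675.3 ± 74.5 when JQ1 did. No library outside the LPS + JQ1 group was under 1034 TPM, and the highest LPS + JQ1 library was at 748.7.

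**Figure D1:**
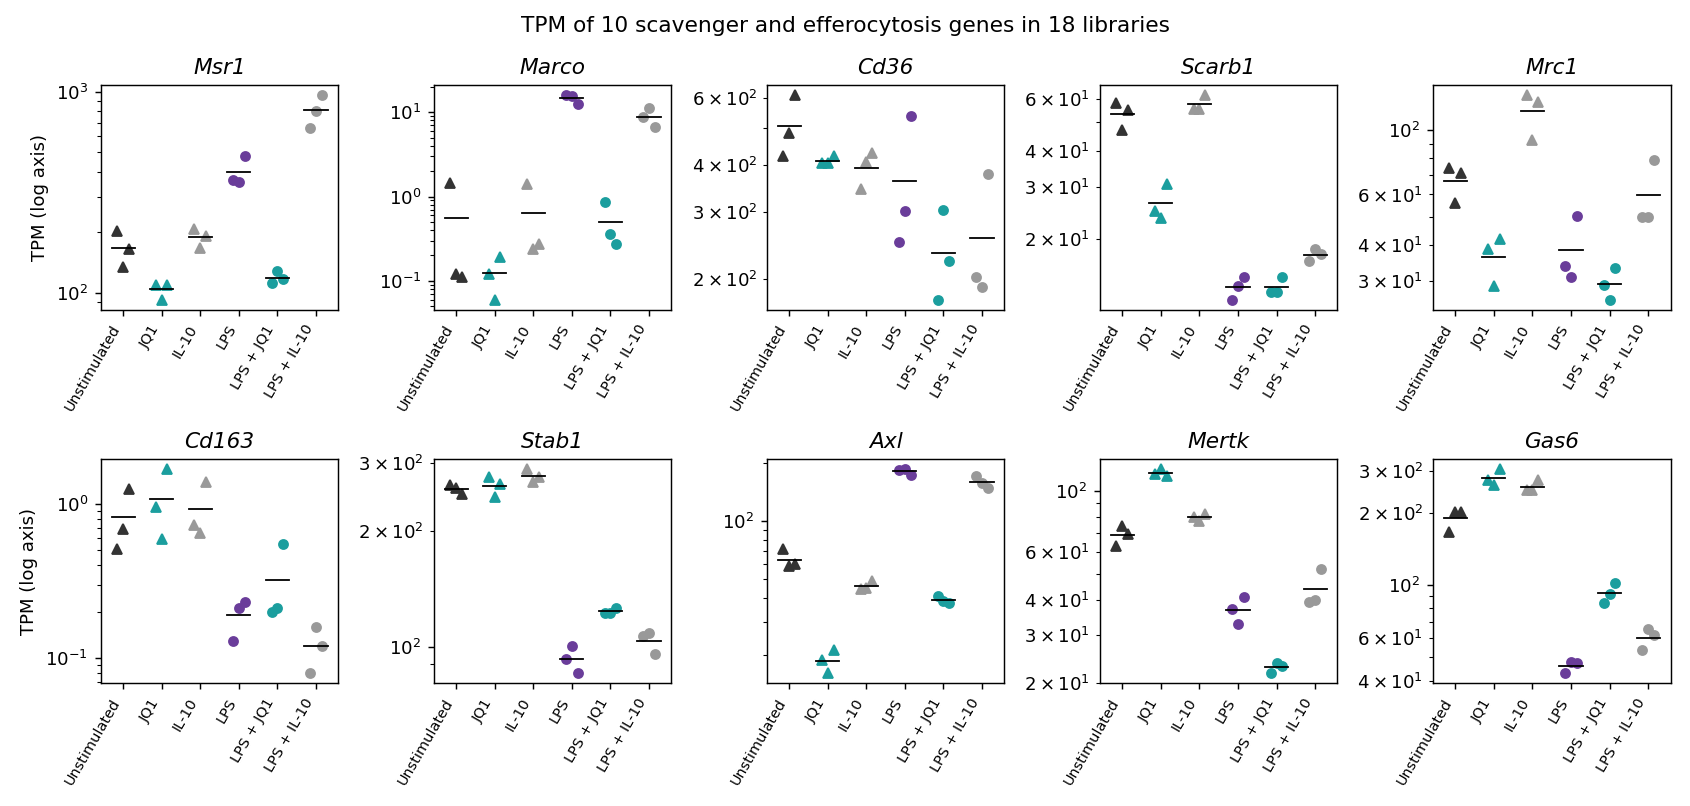
TPM of each of the 10 genes in the 18 libraries (log axis, a different range in each panel), with triangles for cells without LPS, circles for cells with LPS and a bar at the mean of each group of 3. Msr1, Marco and Axl are highest in groups with LPS but no JQ1, whereas Gas6, Stab1 and Scarb1 are highest without LPS.

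LPS changed 7 of the 10 genes against Unstimulated cells, 3 upward and 4 downward (DESeq2 Wald test, adjusted p under 0.05), where 66.3% of all genes tested were called (32.4% higher and 33.8% lower). The median log2 fold change of the 10 was -0.08, beside -0.03 over all genes. Marco, Axl and Msr1 rose, and Cd163, Gas6, Scarb1 and Stab1 fell. JQ1 alone changed 7 of 10, beside 44.7% of all genes (21.4% higher and 23.2% lower). Mertk, Gas6 and Stab1 rose and Axl, Scarb1, Mrc1 and Msr1 fell. IL-10 alone changed 3 of 10, beside 3.92% of all genes tested (2.46% higher and 1.46% lower). Mrc1 and Gas6 rose and Axl fell. Cd163 had no adjusted p there, so it counts as not called although it was not tested. During LPS stimulation, JQ1 changed 8 of 10, beside 57.6% of all genes (24.5% higher and 33.1% lower), and 7 of those 8 were lower. Gas6 was the one that rose, and the median log2 fold change of the 10 was -0.80, beside -0.09 over all genes. IL-10 during LPS stimulation raised Msr1, Mrc1 and Gas6 and no member was called lower, beside 15.8% of all genes called (7.74% higher and 8.09% lower). At an unadjusted p under 0.05, 2 members were lower there with DESeq2 and 3 with edgeR, and edgeR also called none lower after adjustment. When LPS + JQ1 was set against LPS + IL-10, 1 gene was higher and 6 were lower in the former. Of all genes, 55.6% were called there (23.9% higher and 31.7% lower). With total counts instead, LPS gave 3 higher and 7 lower, JQ1 at rest 2 and 4, JQ1 during LPS stimulation 2 and 4, and LPS + JQ1 against LPS + IL-10 3 and 6. The shares of all genes given above were not taken with total counts. Comparisons against one control group share its libraries, so these counts are not independent of each other.

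The direction of the fold changes depends on how libraries are scaled. LPS moved the median of all genes by -0.03 log2 units with the median-of-ratios scaling used in the main test, -0.11 with TMM, -0.96 with total counts and -0.67 on the log2(TPM + 1) scale. For JQ1 during LPS stimulation the same medians were -0.09, 0.03, 0.29 and 0.16. Fold changes below are on the first scale, and calls that are lost or gained with TMM, total counts or log2(TPM + 1) are given with the gene. Per-library values given as normalised counts are on this scale too, compare libraries for 1 gene only, and are listed in the order of replicates 1, 2 and 3.

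**Figure D2:**
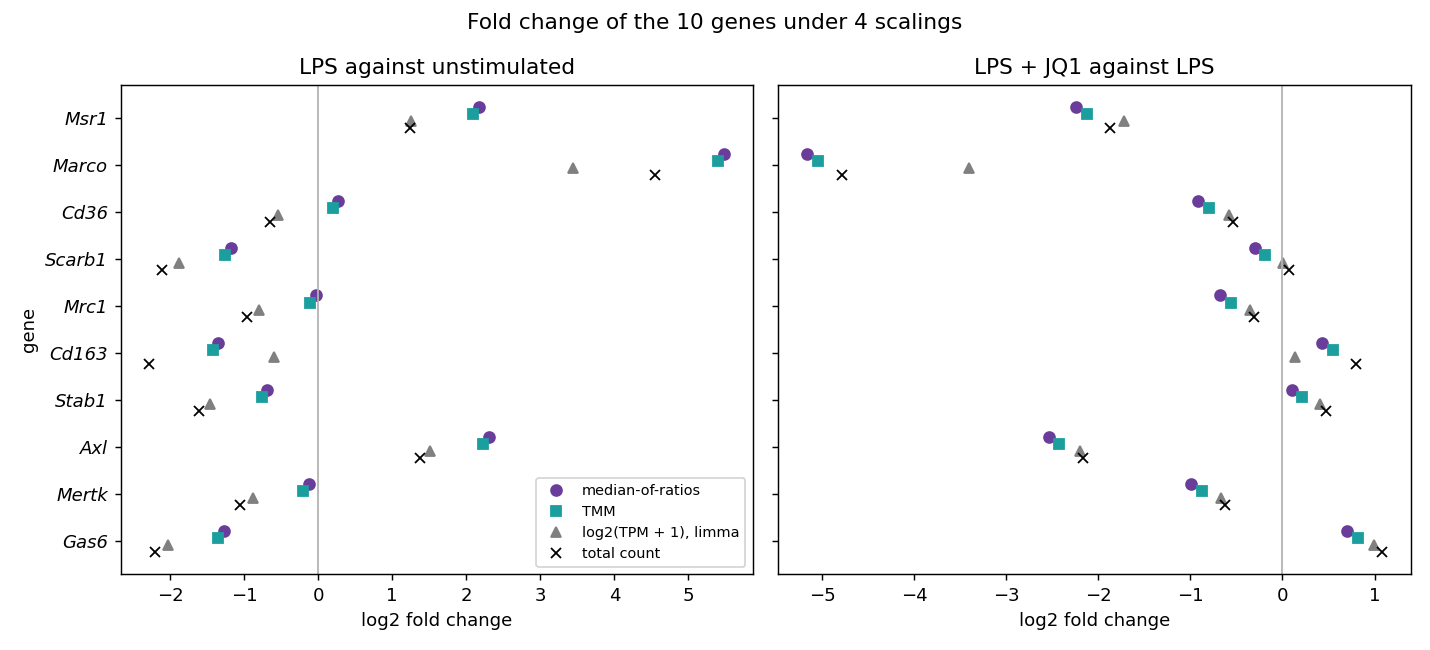
Log2 fold change of the 10 genes with LPS (left) and with JQ1 during LPS stimulation (right) under 4 scalings, 1 marker shape for each. Msr1, Marco and Axl stay right of 0 on the left panel and left of 0 on the right panel under all 4, while Cd36 changes side on the left and Scarb1 on the right.

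The promoters of Axl, Mertk and Gas6 are shown because these partner genes moved in different directions with JQ1. That of Marco is shown because its group means spanned the widest range of the 10. Its lowest group mean, with JQ1, came from libraries with counts of 2, 1 and 3, so no fold is given. Sequences are the 250 bases before the transcription start from RefSeq (GRCm38.p6), 5′ to 3′ on the strand of the gene, and 8 of the 10 genes had an entry. Capitals mark matches on either strand to 8 motifs searched: AP-1 (TGANTCA), an interferon-type element (GAAANNGAA), kappaB (GGGACTTTC), the PU.1 core (GAGGAA), GC box (GGGCGG), the E-box (CACGTG), the TATA box (TATAAA) and a MAF-type site (TGCTGA). The regions are chr7:25788734-25788983, minus strand for Axl, chr2:128698665-128698914, plus strand for Mertk, chr8:13494536-13494785, minus strand for Gas6 and chr1:120505025-120505274, minus strand for Marco.
Axl: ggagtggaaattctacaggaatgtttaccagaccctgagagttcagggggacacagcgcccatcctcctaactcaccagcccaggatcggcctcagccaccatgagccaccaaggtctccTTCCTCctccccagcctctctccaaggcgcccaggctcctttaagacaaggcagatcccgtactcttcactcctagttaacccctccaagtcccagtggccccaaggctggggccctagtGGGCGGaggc
Mertk: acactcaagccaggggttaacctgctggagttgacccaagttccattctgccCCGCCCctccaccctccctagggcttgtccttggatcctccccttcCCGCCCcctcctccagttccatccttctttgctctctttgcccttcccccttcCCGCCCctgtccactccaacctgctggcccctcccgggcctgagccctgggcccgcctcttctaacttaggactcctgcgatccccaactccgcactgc
Gas6: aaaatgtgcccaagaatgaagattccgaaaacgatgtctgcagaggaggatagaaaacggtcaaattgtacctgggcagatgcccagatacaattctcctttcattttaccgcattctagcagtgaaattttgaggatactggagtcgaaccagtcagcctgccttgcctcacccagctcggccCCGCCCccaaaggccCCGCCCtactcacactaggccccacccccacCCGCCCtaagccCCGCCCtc
Marco: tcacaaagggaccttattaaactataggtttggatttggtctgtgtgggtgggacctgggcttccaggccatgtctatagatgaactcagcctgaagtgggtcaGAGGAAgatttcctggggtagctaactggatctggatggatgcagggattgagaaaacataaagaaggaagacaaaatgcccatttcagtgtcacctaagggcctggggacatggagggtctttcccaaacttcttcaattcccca
The Mertk window held 3 GC boxes and the Gas6 window 4, the Axl window held 1 GC box and 1 PU.1 core, and the Marco window 1 PU.1 core. A GC box was found in 32.7% of the 32851 promoters of the same length, and the PU.1 core in 23.3%. CpG pairs numbered 10 in Gas6, 7 in Mertk, 5 in Axl and 0 in Marco. Among the other members with an entry, GC boxes were in the Cd36 and Mrc1 windows and the PU.1 core in those of Mrc1 and Stab1, and the MAF-type site, found in 16.1% of promoters, was in Cd36 and Stab1. AP-1, interferon-type, kappaB, TATA and E-box letters were in none of the 8 windows, beside 6.75%, 7.13%, 0.289%, 12.4% and 6.02% of all promoters. A match is a run of letters and not an occupied site.

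Among Axl, Mertk and Gas6, the largest fold changes with LPS and with JQ1 were those of Axl. In Unstimulated cells, Axl (mm9 chromosome 7, 26542292 to 26573724, minus strand) had normalised counts of 2506, 2155 and 2059, against 11970, 11520 and 9771 with LPS. JQ1 brought the values to 765.4, 687.1 and 853.6 without LPS and to 2081, 1808 and 1827 with LPS, so that LPS + JQ1 cells ended below or within the Unstimulated range on this scale. On TPM all 3 LPS + JQ1 libraries (37.3 to 40.6) were below the Unstimulated ones (58.3 to 71.4). Without LPS the IL-10 values were 1514, 1594 and 1612, and with LPS they were 10400, 8850 and 7886. LPS raised Axl by 2.31 log2 units (SE 0.114, DESeq2 adjusted p 2.49e-90), JQ1 lowered it by -1.54 without LPS (SE 0.117, adjusted p 6.53e-38) and by -2.54 with LPS (SE 0.114, adjusted p 7.27e-108), and the groups did not overlap in any of the 3. The effect of JQ1 was stronger with LPS, with an interaction of -0.997 (SE 0.163, DESeq2 adjusted p 1.08e-08). IL-10 lowered Axl by -0.51 at rest (SE 0.115, adjusted p 0.000706, 3 of 3 mice lower), a call that was lost without all libraries of replicate 1 (-0.39, adjusted p 0.0828) or replicate 2 (-0.55, adjusted p 0.0612). With LPS the effect of IL-10 was -0.29 and missed the threshold (DESeq2 adjusted p 0.0562, 3 of 3 mice lower), but passed with the replicate number as a block (0.0217), without LPS replicate 3 (-0.38, adjusted p 0.0131) and without LPS + IL-10 replicate 1 (-0.40, adjusted p 0.00398). Without LPS + IL-10 replicate 3 it was -0.20 (adjusted p 0.24).

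Mertk moved with JQ1 in opposite directions with and without LPS. In Unstimulated cells, Mertk (chromosome 2, 128524692 to 128628630, plus strand) had normalised counts of 1534, 1899 and 1668, and JQ1 took them to 3207, 3532 and 3134. LPS libraries had 1668, 1403 and 1600, and LPS + JQ1 libraries 775.3, 775.1 and 789.1, the lowest of all groups. The effect of JQ1 was 0.957 log2 units at rest (SE 0.0909, DESeq2 adjusted p 2.11e-24) and -0.996 with LPS (SE 0.0959, adjusted p 2.83e-24), and the groups did not overlap in either case. The interaction was -1.95 (SE 0.132, DESeq2 adjusted p 4.85e-47). Seen from the side of LPS, the ratio of LPS to no LPS in each mouse was 1.09, 0.739 and 0.959 without pretreatment and 0.242, 0.219 and 0.252 with JQ1. Replicate 2 changed sequencing lane between the stimulated and unstimulated libraries, while replicates 1 and 3 did not. LPS alone gave -0.12 (adjusted p 0.237) on the main scale, and Mertk passed as lower with TMM (-0.20, adjusted p 0.0379), total counts (-1.05, adjusted p 6.31e-31) and log2(TPM + 1) (-0.89, limma adjusted p 8.86e-07). IL-10 left no called difference in Mertk, with an effect of 0.16 at rest (95% interval -0.02 to 0.34) and 0.13 with LPS (95% interval -0.05 to 0.32).

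The ligand Gas6 moved against Axl in each LPS and JQ1 comparison. In Unstimulated cells, Gas6 (chromosome 8, 13465374 to 13494535, minus strand) had normalised counts of 2900, 3690 and 3462, and with LPS 1377, 1459 and 1319. JQ1 raised the values to 5480, 5525 and 6052 at rest and to 2148, 2142 and 2480 with LPS, and IL-10 gave 4195, 4358 and 4518 and, with LPS, 1604, 1813 and 1611. The log2 fold changes were -1.27 with LPS (SE 0.0924, DESeq2 adjusted p 2.97e-42), 0.77 with JQ1 (SE 0.0897, adjusted p 2.59e-16) and 0.70 with JQ1 during LPS stimulation (SE 0.0931, adjusted p 2.32e-13). IL-10 also raised Gas6, by 0.38 at rest (adjusted p 0.00148) and 0.27 with LPS (adjusted p 0.0265), in 3 of 3 mice each. The call at rest was lost without all libraries of replicate 1 (0.31, adjusted p 0.189) and on log2(TPM + 0.1) (0.44, limma adjusted p 0.0532). The one with LPS was lost in a fit of those 2 groups alone (0.29, adjusted p 0.126) and without LPS replicate 1 (0.27, adjusted p 0.0819), LPS replicate 3 (0.24, 0.119) or LPS + IL-10 replicate 2 (0.21, 0.203). That call was also lost without all libraries of replicate 1 (0.30, adjusted p 0.0889), replicate 2 (0.26, 0.264) or replicate 3 (0.27, 0.129). The effect of JQ1 with LPS differed from that at rest by -0.06 (adjusted p 0.752) on the main scale, but by 0.49 with total counts (adjusted p 0.000524) and 0.43 on log2(TPM + 1) (limma adjusted p 0.0194).

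Ratios of TPM within a library need no scaling between libraries. The ratio of Axl to Mertk was 1.13, 0.784 and 0.853 in Unstimulated libraries. JQ1 libraries had 0.165, 0.135 and 0.188, and IL-10 libraries 0.552, 0.578 and 0.592. LPS took it to 4.97, 5.69 and 4.23, LPS + JQ1 to 1.86, 1.62 and 1.61 and LPS + IL-10 to 4.36, 3.94 and 2.87. The Axl transcript was thus less abundant than that of Mertk with JQ1 and with IL-10 at rest, and more abundant in every LPS library. The ratio of Gas6 to Axl ran from a mean of 15.1 ± 1.05 (SD, n = 3) with JQ1 through 5.63 ± 0.0563 with IL-10, 3.07 ± 0.630 in Unstimulated cells and 2.40 ± 0.326 with LPS + JQ1 to 0.380 ± 0.0588 with LPS + IL-10 and 0.254 ± 0.0201 with LPS. The Unstimulated libraries (2.35 to 3.47) overlapped those with LPS + JQ1 (2.08 to 2.73), and no other neighbouring groups in that order did.

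**Figure D3:**
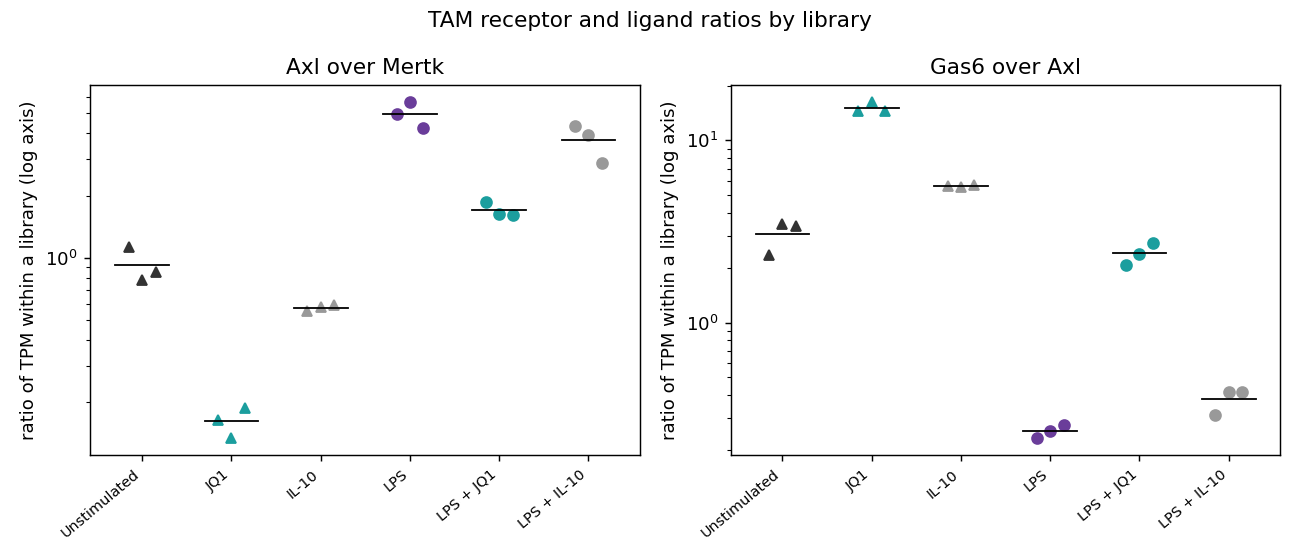
Ratio of Axl to Mertk TPM (left) and of Gas6 to Axl TPM (right) within each library (log axes), with a bar at the mean of each group of 3. The Axl to Mertk ratio is 4.23 to 5.69 with LPS and 1.61 to 1.86 with LPS + JQ1, and the Gas6 to Axl ratio is under 1 only with LPS and LPS + IL-10.

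Msr1, the class A receptor for acetylated and oxidised lipoproteins, was the gene on which JQ1 and IL-10 differed most during LPS stimulation after Marco. In Unstimulated cells, Msr1 (chromosome 8, 40667054 to 40728032, minus strand) had normalised counts of 2698, 1918 and 2221, and with LPS 9921, 8891 and 11990. IL-10 before LPS gave 16730, 18200 and 22470, above every LPS library, and JQ1 before LPS gave 2130, 2228 and 2132, inside the Unstimulated range on this scale. On TPM the LPS + JQ1 libraries had 111.2, 128.6 and 116.6, all below the Unstimulated ones at 133.8 to 201.9. LPS raised Msr1 by 2.17 log2 units (SE 0.135, DESeq2 adjusted p 4.89e-57). During LPS stimulation JQ1 lowered it by -2.25 (SE 0.135, adjusted p 2.13e-60) and IL-10 raised it by 0.90 (SE 0.134, adjusted p 9.62e-10). The difference between LPS + JQ1 and LPS + IL-10 was -3.15 (SE 0.135, adjusted p 8.40e-118), which is 8.84-fold. At rest JQ1 gave 1577, 1401 and 1534 and lowered Msr1 by -0.60 (adjusted p 4.67e-05), while IL-10 gave 2773, 2271 and 2408 with no called difference (0.12, adjusted p 0.959).

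Both treatments acted differently on Msr1 with and without LPS. The interaction was -1.64 for JQ1 (SE 0.192, DESeq2 adjusted p 2.83e-16) and 0.78 for IL-10 (SE 0.191, DESeq2 adjusted p 0.00153). Of the 10 genes, 4 were called in the interaction of JQ1 with LPS, beside 39.5% of all genes, and Msr1 was the 1 called in that of IL-10 with LPS, beside 6.67%. The ratio of LPS to no LPS within the mice was 3.68, 4.64 and 5.40 without pretreatment, 1.35, 1.59 and 1.39 after JQ1 and 6.03, 8.01 and 9.33 after IL-10. The interaction with IL-10 had a similar size but missed the threshold with limma on log2(TPM + 1) (0.82, adjusted p 0.069).

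Marco, the class A receptor that binds unopsonised particles and bacteria, was close to absent without LPS. Its counts (chromosome 1, 122371115 to 122401661, minus strand) were 24, 1 and 2 in Unstimulated libraries. JQ1 libraries had 2, 1 and 3, and IL-10 libraries 45, 4 and 4. LPS libraries reached 270, 346 and 213, those of the LPS + JQ1 group 15, 6 and 4, and those of the LPS + IL-10 group 143, 154 and 143. Replicate 1 thus held most of the Marco reads of the Unstimulated and IL-10 groups, and the 3 LPS libraries lay far above every other library outside the LPS + IL-10 group. LPS raised Marco by 5.48 log2 units (SE 0.859, DESeq2 adjusted p 5.21e-10). Without Unstimulated replicate 1, the control libraries left were at the floor of 3 counts or fewer. Against that floor in each library the LPS mean was at least 94.2-fold higher. This bound leaves out the control library with 24 counts. With all libraries in, the fitted change was 44.6-fold, and the ratio of LPS to Unstimulated in replicate 1 was 20.6. JQ1 lowered it during LPS stimulation by -5.17 (SE 0.854, adjusted p 5.86e-09), in 3 of 3 mice. The IL-10 effect during LPS stimulation was -0.85 (adjusted p 0.598), although the normalised counts of 193.5, 234.1 and 128.9 lay below all LPS values of 381.7, 357.8 and 261.5, and it passed in a fit of those 2 groups alone (adjusted p 0.00399). At rest the JQ1 libraries had no more than 3 counts, so no fold is given, and the fitted interaction with JQ1 rests partly on those libraries. It was -3.14 and missed the threshold (DESeq2 adjusted p 0.0503), and was -2.04 without all libraries of replicate 3 (adjusted p 0.388). It passed with the replicate block (0.00387), on log2(TPM + 1) (limma adjusted p 5.43e-05), and without Unstimulated replicate 1 (0.000318), JQ1 replicate 2 (0.0453) or LPS + JQ1 replicate 1 (0.0216).

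Cd36, a receptor for oxidised lipoproteins and fatty acids, had no called change with LPS on the main scale and varied widely between the LPS libraries. In Unstimulated cells, Cd36 (chromosome 5, 17287508 to 17394777, minus strand) had normalised counts of 10060, 12140 and 14360, and with LPS 11060, 12600 and 20590, so that LPS replicate 3 stood apart. JQ1 gave 11080, 11720 and 11480 at rest and 6181, 9782 and 7470 with LPS, and the latter lay below all LPS libraries. IL-10 at rest gave 8009, 9778 and 9673, below all Unstimulated libraries, with an effect of -0.41 that was not called (DESeq2 adjusted p 0.712). The effect of JQ1 during LPS stimulation was -0.92 (SE 0.281, DESeq2 adjusted p 0.00246), but this missed the threshold with total counts (-0.54, adjusted p 0.0983) and on log2(TPM + 1) (-0.58, limma adjusted p 0.117), and was -0.56 without all libraries of replicate 3 (adjusted p 0.0028). LPS gave 0.28 (95% interval -0.28 to 0.83, adjusted p 0.398) on the main scale and -0.65 with total counts (adjusted p 0.0348). IL-10 with LPS gave 8369, 7199 and 13610, an effect of -0.60 that was not called (adjusted p 0.148) but passed without LPS + IL-10 replicate 3 (-0.92, adjusted p 0.00528), while without LPS replicate 3 it was -0.28 (adjusted p 0.613). The interaction with JQ1 was -0.82 (adjusted p 0.0869) and passed with the replicate block (0.0392), without LPS replicate 1 (-0.99, adjusted p 0.0359) and without LPS + JQ1 replicate 2 (-1.03, adjusted p 0.0347), but was -0.50 without LPS replicate 3 (adjusted p 0.286).

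Scarb1, the receptor for high-density lipoprotein, fell with LPS and with JQ1. In Unstimulated cells, Scarb1 (chromosome 5, 125757457 to 125821464, minus strand) had normalised counts of 956.6, 820.3 and 900.3, against 384.6, 405.3 and 392.9 with LPS and 472.2, 474.2 and 578.8 with JQ1. LPS + JQ1 gave 322.5, 295.9 and 343.4 and LPS + IL-10 481.8, 487.9 and 445.4. LPS lowered Scarb1 by -1.18 log2 units (SE 0.0968, DESeq2 adjusted p 1.31e-33) and JQ1 by -0.82 at rest (SE 0.0921, adjusted p 1.33e-17). During LPS stimulation the JQ1 effect was -0.30 (adjusted p 0.00815), and the interaction of 0.52 (SE 0.140, DESeq2 adjusted p 0.000941) means that JQ1 lowered Scarb1 less with LPS than without. The effect with LPS was lost with TMM (-0.19, adjusted p 0.13), without LPS + JQ1 replicate 2 (-0.25, adjusted p 0.0631) and with total counts and log2(TPM + 1), where it was 0.073 (adjusted p 0.595) and 0.0052. IL-10 gave 885.8, 925.1 and 966.2 at rest, an effect of 0.04 (95% interval -0.13 to 0.22), and 0.25 with LPS (adjusted p 0.0746), higher in 3 of 3 mice. The latter passed with total counts (0.35, adjusted p 0.00787) and on log2(TPM + 1) (0.35, limma adjusted p 0.0334).

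**Figure D4:**
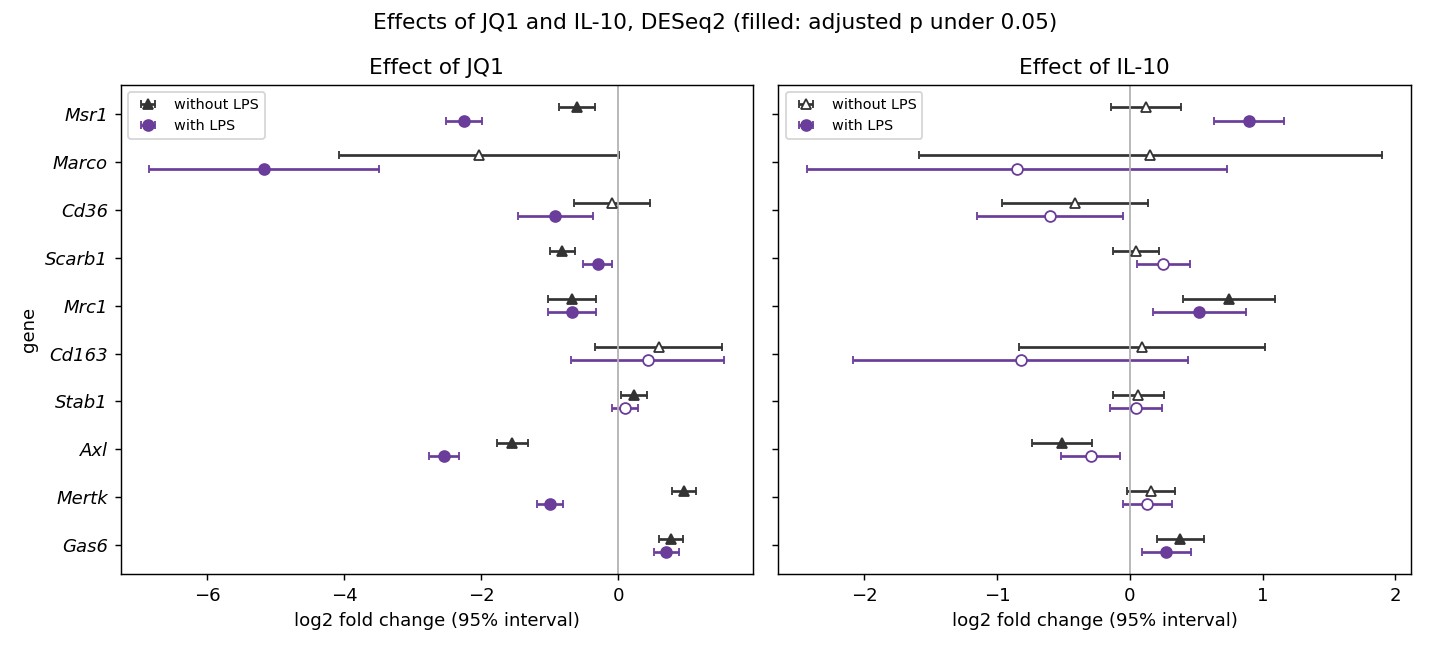
DESeq2 log2 fold changes of the 10 genes with JQ1 (left) and IL-10 (right), with 95% intervals, for cells without LPS (triangles) and with LPS (circles), filled where the adjusted p is under 0.05. Mertk is the gene with called JQ1 effects on opposite sides of 0 (0.957 and -0.996), and the IL-10 effect on Msr1 is 0.90 with LPS and 0.12 without.

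Mrc1, the mannose receptor CD206, was higher with IL-10 and lower with JQ1 in both settings on the main scale. In Unstimulated cells, Mrc1 (chromosome 2, 14151041 to 14253684, plus strand) had normalised counts of 2737, 2175 and 2582, against 4759, 3456 and 4362 with IL-10 and 1646, 1304 and 1766 with JQ1. LPS libraries had 2326, 2017 and 3007, LPS + IL-10 libraries 3219, 2944 and 4401, and LPS + JQ1 libraries 1581, 1290 and 1722. Replicate 2 was the lowest of its group in each of the 6 groups. IL-10 raised Mrc1 by 0.75 log2 units at rest (SE 0.177, DESeq2 adjusted p 0.00167) and by 0.52 with LPS (SE 0.178, adjusted p 0.0235), in 3 of 3 mice each, while the LPS and LPS + IL-10 libraries overlapped. JQ1 lowered it by -0.67 at rest (SE 0.178, adjusted p 0.000626) and by -0.68 with LPS (SE 0.178, adjusted p 0.000358), with no overlap of groups. The JQ1 call with LPS was lost with total counts (-0.30, adjusted p 0.153) and on log2(TPM + 1) (-0.35, limma adjusted p 0.216), and both IL-10 calls were lost on log2(TPM + 1) (0.79, limma adjusted p 0.117 at rest, and 0.62, 0.0931 with LPS). The interaction of JQ1 with LPS was -0.01 (95% interval -0.50 to 0.48). The IL-10 effect at rest was also lost without IL-10 replicate 1 (0.65, adjusted p 0.0529), and the one with LPS without LPS replicate 1 (0.49, 0.0938), LPS replicate 2 (0.40, 0.157) or LPS + IL-10 replicate 3 (0.33, 0.188). LPS itself gave -0.03 (adjusted p 0.895) on the main scale, and Mrc1 passed as lower with total counts (-0.96, adjusted p 4.50e-07) and on log2(TPM + 1) (-0.80, limma adjusted p 0.00436).

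Stab1, a clearance receptor of the stabilin family, fell with LPS. In Unstimulated cells, Stab1 (chromosome 14, 31952199 to 31981827, minus strand) had normalised counts of 14820, 15290 and 13760, against 9695, 9915 and 7688 with LPS. JQ1 before LPS gave 10100, 9228 and 9934, and IL-10 before LPS 10360, 9716 and 8125. Its expected counts were not whole in any of the 18 libraries, so part of its reads had been divided with other genes, which was the case for no other of the 10. LPS lowered it by -0.68 log2 units (SE 0.0981, DESeq2 adjusted p 9.69e-12). JQ1 at rest gave 17900, 16760 and 16920, a rise of 0.23 (adjusted p 0.0393), which was lost with TMM (0.22, adjusted p 0.0516), with total counts (0.06, 0.666), on log2(TPM + 1) (0.03, limma adjusted p 0.82) and without any of 5 single libraries, namely Unstimulated replicate 1 (0.24, 0.0721) or 3 (0.19, 0.171) and JQ1 replicate 1 (0.21, 0.134), 2 (0.26, 0.0551) or 3 (0.25, 0.0659). JQ1 during LPS stimulation gave 0.10 (adjusted p 0.4) on the main scale and passed as higher with total counts (0.48, adjusted p 6.57e-07) and on log2(TPM + 1) (0.41, limma adjusted p 6.43e-05). The interaction with JQ1 was -0.13 (adjusted p 0.482) on the main scale and 0.42 with total counts (adjusted p 0.00342) and 0.38 on log2(TPM + 1) (limma adjusted p 0.00322). IL-10 gave 0.06 at rest (95% interval -0.13 to 0.25) and 0.05 with LPS (95% interval -0.15 to 0.24).

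Cd163, the receptor for haemoglobin bound to haptoglobin, was rare in every library. Its counts (chromosome 6, 124254669 to 124280545, plus strand) were 20, 13 and 56 in Unstimulated libraries, while JQ1 libraries had 39, 22 and 64 and IL-10 libraries 55, 26 and 48. LPS libraries had 5, 11 and 9, LPS + JQ1 libraries 8, 8 and 19, and LPS + IL-10 libraries 3, 5 and 6. LPS lowered Cd163 by -1.35 log2 units (SE 0.539, DESeq2 adjusted p 0.02), in 3 of 3 mice, but the call was lost without Unstimulated replicate 3 (-0.88, adjusted p 0.199) or LPS replicate 1 (-1.17, adjusted p 0.0799). JQ1 at rest gave 0.59 (95% interval -0.34 to 1.52) and with LPS 0.43 (95% interval -0.68 to 1.54), neither of them called. IL-10 at rest had no adjusted p, since the mean count was below DESeq2's own filter there, and no difference was detectable at this depth (0.09, 95% interval -0.84 to 1.02). LPS + JQ1 was above LPS + IL-10 in 3 of 3 mice by 1.25, which missed the threshold (DESeq2 adjusted p 0.0765) but passed with the replicate block (0.0317), with total counts (1.53, adjusted p 0.0276) and without LPS + JQ1 replicate 2 (1.51, adjusted p 0.047). Without all libraries of replicate 3 it was 0.59 (adjusted p 0.567).

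During LPS stimulation, JQ1 and IL-10 were also compared directly. Msr1, Marco, Axl, Mrc1, Mertk and Scarb1 were lower after JQ1 than after IL-10, in 3 of 3 mice each and without overlap. The differences for the genes not yet given were -4.32 for Marco (adjusted p 1.52e-06), -2.25 for Axl (1.77e-84), -1.20 for Mrc1 (6.95e-11), -1.13 for Mertk (5.22e-31) and -0.55 for Scarb1 (3.02e-07), all from DESeq2. Gas6 was higher with LPS + JQ1 by 0.43 (DESeq2 adjusted p 1.07e-05). For Cd36 the difference was -0.32 (95% interval -0.87 to 0.23) and for Stab1 0.05 (95% interval -0.14 to 0.25), neither called on the main scale, and Stab1 passed as higher with total counts (0.34, adjusted p 0.000605) and on log2(TPM + 1) (0.25, limma adjusted p 0.00399).

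For each gene the other gene with the most similar profile was looked up among 8370 genes whose normalised counts averaged 100 or more, by Pearson's r of variance-stabilised counts over 18 libraries. These libraries fall into 6 groups of the same 3 mice, and most of each r comes from the differences between groups, so the values are descriptions. For Axl it was Gna15 (r 0.996, Spearman's rho 0.948), for Msr1 Myadm (0.996, rho 0.926), for Scarb1 Zmynd8 (0.985, rho 0.946), for Stab1 Pex6 (0.984, rho 0.893) and for Gas6 Abhd4 (0.982, rho 0.981). Marco was closest to Lad1 (0.975, rho 0.897), Mrc1 to Cd5l (0.933, rho 0.938), Mertk to Fosl2 (0.923, rho 0.802), Cd163 to Ift122 (0.905, rho 0.874) and Cd36 to Mettl9 (0.847, rho 0.769). Cd36 had the lowest best match of the 10. Mean TPM of Myadm was 92.6 in Unstimulated cells, 244.7 with LPS, 496.8 with LPS + IL-10 and 58.8 with LPS + JQ1, the order seen for Msr1. Cd5l, a macrophage protein bound to IgM in blood, had means of 48.9 in Unstimulated cells, 107.9 with IL-10 and 26.2 with JQ1.

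Among 15 other scavenger receptor genes, 14 were tested with LPS, of which 4 rose and 4 fell. Over all genes, 66.3% were called with LPS, 44.7% with JQ1 at rest and 57.6% with JQ1 during LPS stimulation. With IL-10 these shares were 3.92% at rest and 15.8% during LPS stimulation. Olr1, the lectin-like receptor for oxidised lipoprotein, went from 0.190, 0.260 and 0.170 TPM in Unstimulated cells to 9.25, 11.1 and 12.8 with LPS, and JQ1 before LPS gave 58.2, 88.4 and 65.1. JQ1 thus raised Olr1 during LPS stimulation (2.37 log2 units, DESeq2 adjusted p 1.72e-62), the opposite of its effect on Msr1 and Marco, and IL-10 lowered it there (-0.88, adjusted p 2.06e-07). With JQ1 2 rose and 6 fell at rest, and 1 rose and 10 fell with LPS, with the largest fall in Cd93, a receptor tied to phagocytosis (-3.84 and -3.81). Cd93 fell from 79.6, 92.95 and 102.0 TPM to 5.00, 5.94 and 5.66 with JQ1, and from 23.7, 27.5 and 36.6 to 1.91, 3.20 and 2.61 during LPS stimulation. Cd14, the co-receptor for LPS, was the top riser with JQ1 at rest (0.65, adjusted p 3.42e-14) but was lower with JQ1 during LPS stimulation (-0.19, adjusted p 0.0355), where it turned positive with total counts (0.19). IL-10 at rest changed none of the 9 tested, with 1 lower at an unadjusted p under 0.05 by DESeq2 and 2 by edgeR. With LPS it gave 1 higher and 2 lower of 12. With total counts LPS gave 4 higher and 9 lower, JQ1 at rest 1 higher and 8 lower, and JQ1 during LPS stimulation 2 higher and 6 lower. On log2(TPM + 1) JQ1 gave 2 higher and 7 lower at rest, and 2 higher and 3 lower during LPS stimulation. The size of the excess of falls with JQ1 during LPS stimulation thus depends on scaling. The list shares Cd68 and Cd14 with the macrophage markers and Stab2 with an endothelial list whose sum was also lower with JQ1 (0.05 to 0.33 TPM with LPS + JQ1 against 7.96 to 10.2 with LPS).

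Of 31 other efferocytosis genes, 29 were tested with LPS, and 12 rose and 12 fell. The share of all genes called was 66.3% with LPS, 44.7% with JQ1 at rest and 57.6% with JQ1 during LPS stimulation. For IL-10 it was 3.92% at rest and 15.8% during LPS stimulation. Itgav, an integrin subunit that binds dying cells through Mfge8, rose from 78.8 ± 0.966 to 283.6 ± 38.0 TPM (SD, n = 3; 2.62 log2 units, DESeq2 adjusted p 1.21e-242), and S1pr1, a receptor for sphingosine-1-phosphate, fell from 53.2 ± 4.44 to 1.35 ± 0.552 (-4.55, adjusted p 8.58e-165). With JQ1, 7 rose and 10 fell at rest, led by the lipid exporter Abca1 (0.88) and the fractalkine receptor Cx3cr1 (-4.47, from 77.5, 60.9 and 64.2 to 4.11, 1.74 and 2.10 TPM). During LPS stimulation 6 rose and 15 fell, led by the lipid exporter Abcg1 (0.80) and by Thbs1 (-2.82), which encodes thrombospondin 1, a bridging protein for Cd36. IL-10 raised 3 and lowered 1 of 25 at rest, with the largest rise in Pros1 (0.69, adjusted p 0.000518), the protein S ligand of Mertk, and a fall in Anxa1 (-0.35, adjusted p 0.00693). With LPS it raised 6 and lowered 5 of 28, led by Abca1 (0.82) and Abcg1 (-0.63). Pros1 had 21.7, 18.2 and 19.0 TPM in Unstimulated libraries, against 32.9, 31.6 and 34.5 after IL-10 and 7.03, 5.83 and 7.06 after JQ1, so the 2 TAM ligands moved in opposite directions with JQ1 (-1.36 for Pros1, adjusted p 9.33e-16, and 0.77 for Gas6). With total counts, LPS gave 7 higher and 22 lower, JQ1 at rest 3 higher and 13 lower, and JQ1 during LPS stimulation 10 higher and 7 lower, so the balance of directions in this list is not stable to scaling.

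The 14 transcription factors tied to these receptors in the literature were all tested. Of all genes, 66.3% were called with LPS, 44.7% with JQ1 at rest and 57.6% with JQ1 during LPS stimulation. IL-10 gave 3.92% at rest and 15.8% during LPS stimulation. With LPS 8 rose and 6 fell, led by Stat3 (2.43, DESeq2 adjusted p 1.19e-145), the factor activated by IL-10, and Rxra (-4.08, adjusted p 1.22e-261), the partner of the lipid-sensing nuclear receptors. With total counts 3 rose and 9 fell. JQ1 raised 4 and lowered 7 at rest and raised 5 and lowered 6 with LPS, and with total counts it raised 2 and lowered 7 at rest and raised 7 and lowered 6 with LPS. Nr1h3, the liver X receptor alpha, had the largest fall in both, from 28.8, 24.0 and 30.2 TPM to 5.09, 4.43 and 6.03 at rest (-2.21, adjusted p 3.58e-44) and from 22.1, 24.9 and 24.3 to 3.37, 3.76 and 1.65 with LPS (-3.32, adjusted p 2.68e-78). Klf4 rose most with JQ1 at rest (0.84, adjusted p 3.28e-08). IL-10 raised 2 and lowered none at rest, led by Stat3 (0.75, adjusted p 1.31e-12), and raised 4 and lowered none with LPS, led by Cebpb (1.43, adjusted p 1.42e-12). At an unadjusted p under 0.05, 1 was lower in each of these 2 comparisons, with DESeq2 and with edgeR alike, and edgeR too called none lower.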

How the data were processed

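RNA-seq was analysed from 18 libraries of Il10-/- BMDMs in 6 groups of 3, grouped by title. The authors made stranded, ribosomal RNA-depleted paired-end libraries, extracted reads with TagDust, used STAR for alignment to mm9, and estimated gene abundance with RSEM 1.2.31. The deposited expected counts are RSEM estimates in which reads matching several genes are divided, and 5.40% to 6.63% of genes per library had values that were not whole. They were rounded. The TPM values, scaled for gene length, were also deposited by the authors. The deposited effective lengths and the FPKM values were not used here.

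DESeq2 1.42.0 (R 4.3.3) was fitted to the 18 libraries together by group, without covariates, under default filtering and median-of-ratios scaling, and an adjusted p (Benjamini-Hochberg over all genes tested) under 0.05 was called. Intervals of fold changes are 95% Wald intervals. Alternatives were edgeR 4.0.16, TMM or total-count scaling, limma 3.58.1 on log2(TPM + 1) and log2(TPM + 0.1), a minimum of 10 counts in 3 libraries, the replicate number or the lane as a term, only the groups compared, and each replicate or library left out. The scripts were tested on simulated data.

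The design text describes matched samples, so libraries that share a replicate number were treated as coming from 1 mouse, which no label states outright. Deviations from the group mean correlated between libraries of the same number by -0.174 to 0.581 over 18 pairs, with negative values for replicates 2 and 3 in both comparisons of LPS + JQ1 with another LPS group. Replicate pairs within a group differed beyond sampling noise (chi-square per degree of freedom 4.15 to 30.65). Replicate 1 was sequenced on lane 7 and replicate 3 on lane 8, while replicate 2 used lane 7 for unstimulated and lane 8 for LPS-stimulated cells.

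The 10 genes, the pathway lists and the marker lists were chosen with earlier results of these data known. In the pathway lists, the called gene with the largest rise and the largest fall was named where its mean normalised count was at least 100, and Cd14 with LPS + JQ1 and Pros1 with JQ1 were named after their values were seen. The result of 1 gene in these lists is not reported here. Positions are from GENCODE vM1 (mm9), promoters from RefSeq (GRCm38.p6). A library with 3 counts or fewer of a gene was treated as at its floor, and such floors cover counting error only, since PCR copies of 1 molecule may be counted as separate reads.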

Additional observations from a re-analysis of the deposited data

Results flagged for a closer look

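A test of the difference itself, the interaction term of DESeq2, asked whether a treatment acted differently with and without LPS. It called 4 of the 10 genes for JQ1, beside 39.5% of all genes, and 1 for IL-10, beside 6.67%. The interaction of JQ1 with LPS was -1.95 log2 units for Mertk, -1.64 for Msr1, -0.997 for Axl and 0.52 for Scarb1. For Mertk the JQ1 effect changed sign, for Msr1 and Axl it was more negative with LPS, and for Scarb1 it was less negative. The Scarb1 interaction missed the threshold without all libraries of replicate 1 (0.38, adjusted p 0.178). The interaction of IL-10 with LPS was 0.78 for Msr1. Cycling-cell and granulocyte markers were lower with JQ1 both with and without LPS, and their part in these differences was not tested.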

How the results depend on the processing

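Of 639 values under alternatives that kept all libraries, 563 kept their direction and their side of the threshold, and of 705 with a replicate or library left out, 617 did. With the replicate number as a block, 4 calls were gained (Axl with IL-10 during LPS stimulation, Cd163 between LPS + JQ1 and LPS + IL-10, and the JQ1 interactions of Marco and Cd36), none was lost, and the Mrc1 interaction with JQ1, not called in either fit, turned to 0.0024. The members changed by LPS + IL-10 against LPS numbered 5 with the lane as a term and 4 with the block. On log2(TPM + 1) and log2(TPM + 0.1), 7 members had a JQ1 interaction and 0 an IL-10 interaction, and on log2(TPM + 0.1) 1 member changed with IL-10 at rest. The cause of these differences was not tested.

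Directions turned as follows. The LPS effect on Cd36 was -0.65 with total counts, -0.54 on log2(TPM + 1) and -0.54 on log2(TPM + 0.1), and that on Mrc1 was 0.0097 in the groups compared alone. The JQ1 effect on Scarb1 during LPS stimulation was 0.073 with total counts, 0.0052 on log2(TPM + 1) and 0.0057 on log2(TPM + 0.1). For total counts, log2(TPM + 1) and log2(TPM + 0.1) in that order, the JQ1 interaction was 0.54, 0.51 and 0.52 for Mrc1, 0.42, 0.38 and 0.39 for Stab1, and 0.49, 0.43 and 0.44 for Gas6, and those of Stab1 and Gas6 passed the threshold. With edgeR and with TMM it was 0.12 and 0.12 for Mrc1 and 0.064 and 0.063 for Gas6, in the groups compared alone 0.0093 for Mrc1, and for Cd163 0.39 with total counts and 0.12 on log2(TPM + 0.1).

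With replicates or libraries left out, members changed ranged from 0 to 3 with IL-10 at rest (0 without all libraries of replicate 1) and from 1 to 4 with LPS + IL-10 against LPS (1 without LPS replicate 1). Effects whose sign turned, none of them called with every library in, ranged as follows: with LPS, Cd36 -0.043 to 0.45, Mrc1 -0.20 to 0.093 and Mertk -0.23 to 0.028, and with JQ1 at rest, Marco -2.97 to 0.40 and Cd36 -0.21 to 0.040. The Marco values at rest are fitted to libraries at or near their floor and are no folds, and that with JQ1 passed without Unstimulated replicate 3 (-2.57, adjusted p 0.0326). With IL-10 at rest, Marco ran from -1.24 to 2.55, Cd163 from -0.28 to 0.56 and Scarb1 from -0.0057 to 0.13. With JQ1 during LPS stimulation, Cd163 ran from -0.21 to 0.82 and Stab1 from -0.015 to 0.21, and with IL-10 Stab1 ran from -0.061 to 0.14. Between LPS + JQ1 and LPS + IL-10, Cd36 ran from -0.68 to 0.040 and Stab1 from -0.051 to 0.13. The JQ1 interaction ran from -0.13 to 0.17 for Mrc1, from -0.81 to 0.29 for Cd163 and from -0.15 to 0.037 for Gas6. Counts of Marco without LPS and of Cd163 throughout were too few to show small differences, and whether the 3 mice were handled on separate days is not given in the sources used here.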

Other observations

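The gene closest in profile to Mertk was Fosl2, a subunit of AP-1, with mean TPM of 26.5 in Unstimulated cells, 40.4 with JQ1, 8.25 with LPS and 3.23 with LPS + JQ1. It was higher with JQ1 at rest and lower with JQ1 during LPS stimulation, as Mertk was. Lad1, the closest to Marco, had means of 0.170 TPM in Unstimulated cells, 55.5 with LPS, 27.8 with LPS + IL-10 and 0.310 with LPS + JQ1, and was listed at 0 with JQ1. Zmynd8, the closest to Scarb1 and itself a gene for a bromodomain protein, fell from 40.7 TPM in Unstimulated cells to 9.97 with JQ1 and 3.27 with LPS. These genes were picked for their likeness and carry no test.

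The ratio of Mrc1 to Msr1 TPM within a library was 0.366, 0.418 and 0.433 in Unstimulated cells, 0.639, 0.552 and 0.656 with IL-10 and 0.354, 0.314 and 0.384 with JQ1. With LPS it was 0.0930, 0.0880 and 0.106, with LPS + IL-10 0.0763, 0.0626 and 0.0823 and with LPS + JQ1 0.262, 0.202 and 0.286. IL-10 libraries were thus the highest without LPS and the lowest with LPS on this ratio, which needs no scaling between libraries.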
